A study of Mus musculus with 4 samples.

Results

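The mRNAs of the translation initiation and elongation factors were examined in RPS2 eCLIP of primary mouse cortical neurons. Members were the protein-coding genes whose symbol begins with Eif or Eef and a digit, together with the release factors Etf1 and Gspt1 and the poly(A)-binding proteins Pabpc1 and Pabpc4. Genes of the Eif4ebp and Eif2ak families, which are regulators and not factors, were left out. The rule found 65 of the 31053 genes in the count tables, in 12 groups. In eCLIP (enhanced crosslinking and immunoprecipitation), RNA is fixed to the proteins it touches, cut with RNase I and sequenced after the chosen protein has been pulled down. Here that protein was endogenous RPS2 of the 40S ribosomal subunit. The series has 2 RPS2 IP libraries and 2 total RNA libraries, all from wild-type (WT) neurons with no drug or virus named for them, and each total RNA was set aside from the sample before its IP. The study's cultures came from cortices of E18 C57BL/6J embryos and received floxuridine at day 3 in vitro to limit dividing cells. The day on which these samples were collected is not given in the sources used here, and neither is the number of embryos or cultures behind a library. By the labels only the IP libraries were depleted of rRNA, whereas the methods place depletion after library preparation and name no libraries. If the labels hold, depletion and IP cannot be told apart.

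Translation factors act in a fixed order. eIF1 and eIF1A hold the small subunit open for scanning, eIF2 brings the initiator tRNA, eIF3 is the scaffold, and the eIF4 proteins bind and unwind the capped 5' end. eIF5 and eIF5B complete start-site recognition and subunit joining, eEF1A and eEF2 then drive each elongation cycle, and eRF1 with eRF3 ends it. Many of these factors are encoded by 5'TOP mRNAs, whose translation follows mTOR activity, and in neurons they are a known route by which synaptic activity changes protein synthesis.

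Libraries held 4899718 to 16460545 counts. The factor mRNAs together made up 0.568% of IP replicate 1 (95% interval by Wilson's method, 0.564 to 0.572) and 0.827% of IP replicate 2 (0.822 to 0.833). Their share was 0.620% (0.614 to 0.627) of total RNA replicate 1 and 1.03% (1.02 to 1.03) of replicate 2. The study filtered its single cells on counts of the gene Gm42418, and what its reads stem from was not tested here. Gm42418 took 42.6% and 27.9% of IP replicates 1 and 2, and 39.8% and 15.3% of total RNA replicates 1 and 2. Every other share is lower by as much. Levels are therefore given as CPM, counts scaled to the effective library size that TMM normalization gives, in which the members summed to 6757 and 7385 CPM in the IP and 7295 and 8258 CPM in total RNA. Eef2, Eef1a1 and Eef1a2 alone made up 40.0% to 45.7% of the members' counts in a library. Markers set for the labelled cell type were present, since all 8 neuronal markers exceeded 1 CPM in every library. They summed to 4064 to 4591 CPM in a library. All 5 astrocyte markers exceeded 1 CPM as well, so that level does not single out neurons. Astrocyte markers summed to 1706 and 1491 CPM in IP and total RNA of replicate 1, against 480 and 472 CPM in replicate 2, so their sum followed the replicate number. Microglial markers summed to 23.1 and 25.8 CPM in replicate 1 and to 3.95 and 2.96 CPM in replicate 2. Oligodendrocyte lineage markers summed to 41.2 to 50.8 CPM and the 3 endothelial markers to 0.719 to 1.64 CPM in a library, with Cldn5 the 1 of these 3 at 0 throughout.

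Of the 65 members, 60 had enough counts to be tested, and 37 of these had at least 100 counts in every library. Eef1akmt3 and Eif4e1b had no count in any library, a limit of 0.217 to 0.668 CPM at 3 counts. Eif3j2, Eif4e3 and Eef1akmt4 had at most 20 counts in a library and were not tested. IP was compared with total RNA within each replicate number by the edgeR quasi-likelihood test with the number as a block, and p-values were adjusted over all 12336 genes tested. By this test 4 members rose in the IP (Eif2s1, Eif1, Eif5a and Eif1b), or 6.67% of those tested, against 6.63% of all genes. Lower in the IP were 7 members (Eif5, Eif4a1, Eif4a2, Eif5b, Eef1d, Eef2k and Eif3b), or 11.7%, against 7.55% of all genes. The median log2 fold change, IP over total RNA, was -0.0050 over the members and 0.011 over all genes, and 30 members lay above 0 and 30 below it. In most members, then, the fitted value lay close to that of the average mRNA, and a single one, Eif5, passed a fold of 2 with a call. Both IP libraries were above both total RNA libraries for 9 members (15% of those tested, against 16.9% of all genes) and below both for 8 (13.3%, against 14.9%). With 1 residual degree of freedom a gene, the fit took the dispersion from the trend over all genes. In simulated data this blocked fit missed most genes changed by the smallest fold. The lack of a call thus does not show that a member was unchanged. Without the block edgeR called 0 members in either direction, and 0 of all 12336 genes, so that fit says nothing about single members. It gave 2 members at an unadjusted p under 0.05 (Eif5 and Eif4a1), beside 349 of all 12336 genes tested. In blocked fits DESeq2 gave 2 higher and 1 lower calls and limma-voom 3 higher and 9 lower.

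**Figure D1:**
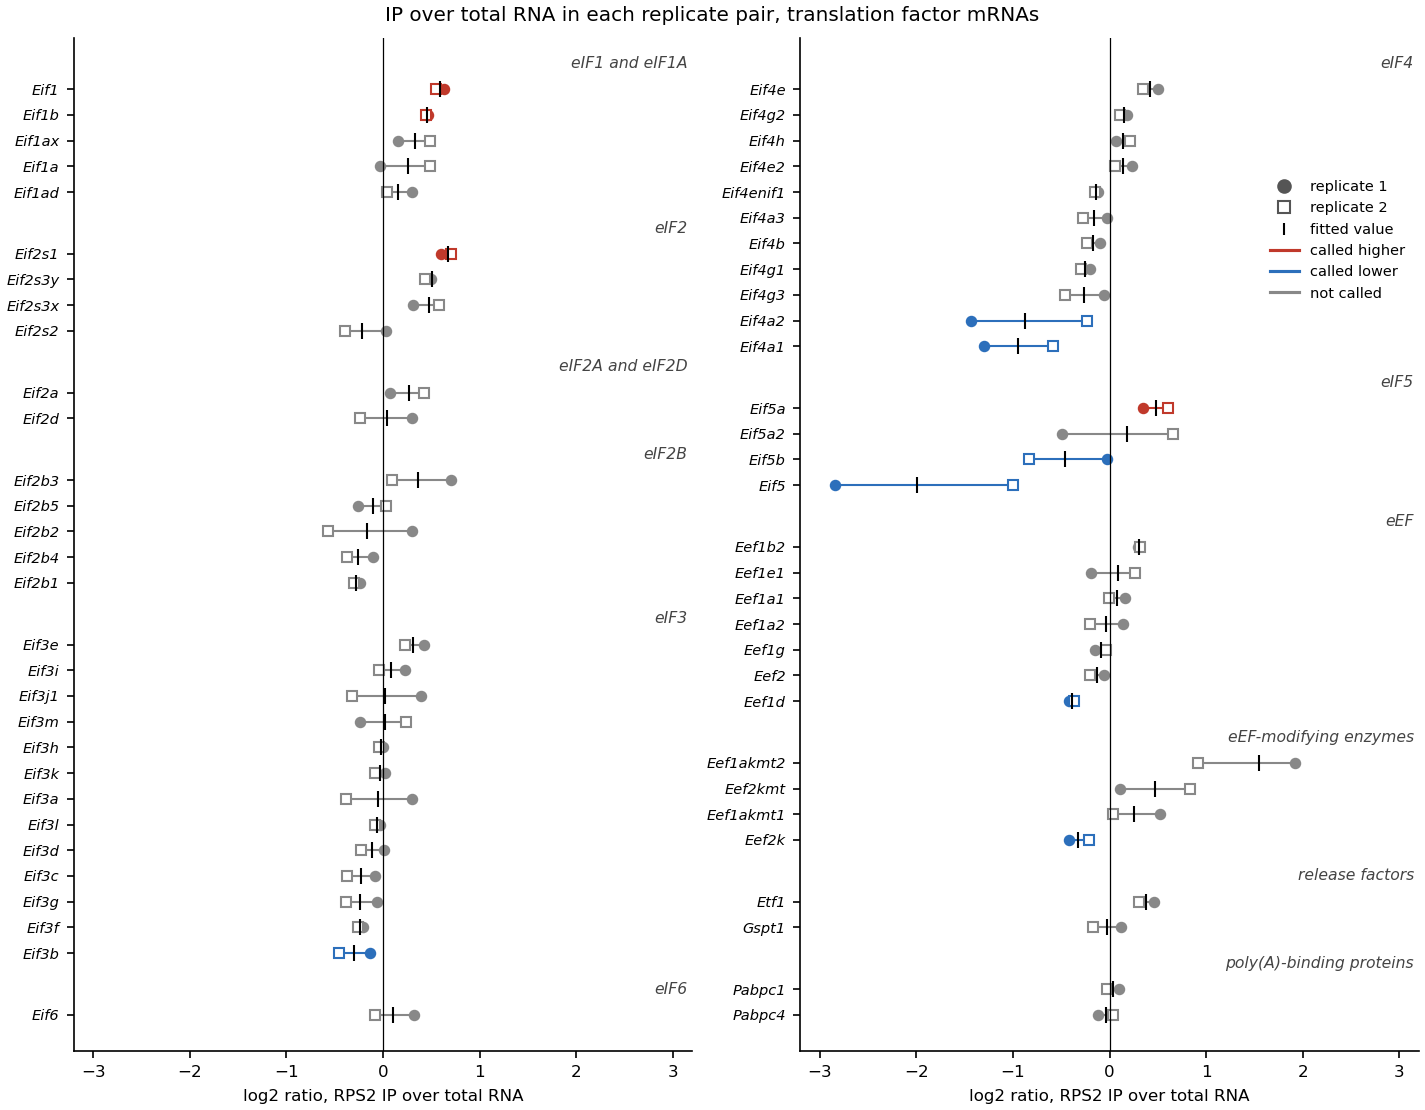
Log2 ratio of RPS2 IP over total RNA for the 60 tested members, by factor group. Circles are replicate 1, squares replicate 2 and ticks the fitted value, with red and blue marking members called higher and lower by edgeR. The eIF1 and eIF1A mRNAs sit to the right of 0 apart from Eif1a in replicate 1, and Eif5, Eif4a1 and Eif4a2 stretch far to the left in replicate 1.

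The 3 lowest members, Eif5, Eif4a1 and Eif4a2, share a feature that the rule did not use. Each holds at least 1 small nucleolar RNA (snoRNA) inside exons that were counted for the gene. A snoRNA is a short stable RNA that guides modification of rRNA and is normally cut out of an intron of its host, and where a host transcript retains it in an exon, its reads count toward the host. Among the members 4 hold such a snoRNA (Eif4g2 is the fourth), and 8 snoRNAs are involved. Their sequences are shown because reads from them cannot be told from reads of the factor mRNA in these counts. They are GENCODE M21 sequences on mm10, written 5' to 3' on the strand of the host. Capitals mark ACA in the last 8 bases, the hallmark of H/ACA snoRNAs, or otherwise CTGA in the last 12, the D box of C/D snoRNAs. Only the strand of the snoRNA was searched. ACA was found in 5 of the 8, against 47.6% of the 1558 annotated snoRNAs and scaRNAs, and CTGA in 1, against 26.8%. Snora28 lies at chr12:111540941-111541067 (+) in Eif5. Gm24029 at chr11:69667834-69667976 (-) and Gm22988 at chr11:69669635-69669778 (-) lie in Eif4a1. Snord2 at chr16:23108953-23109021, Gm24201 at chr16:23110383-23110507, Snora81 at chr16:23110756-23110933 and Gm26447 at chr16:23111301-23111429 (all +) lie in Eif4a2. Gm23262 at chr7:111076060-111076227 (-) lies in Eif4g2, with 89.3% of its bases in counted exons.
Snora28: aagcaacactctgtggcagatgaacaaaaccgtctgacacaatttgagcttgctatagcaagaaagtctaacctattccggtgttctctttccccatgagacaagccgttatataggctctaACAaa
Gm24029: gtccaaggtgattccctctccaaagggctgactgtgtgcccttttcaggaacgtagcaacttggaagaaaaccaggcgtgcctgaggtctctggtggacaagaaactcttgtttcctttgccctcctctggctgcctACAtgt
Gm22988: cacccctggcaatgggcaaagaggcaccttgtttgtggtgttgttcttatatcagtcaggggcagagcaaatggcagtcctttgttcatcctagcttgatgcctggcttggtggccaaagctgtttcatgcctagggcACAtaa
Snord2: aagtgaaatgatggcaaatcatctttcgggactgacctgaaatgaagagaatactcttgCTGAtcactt
Gm24201: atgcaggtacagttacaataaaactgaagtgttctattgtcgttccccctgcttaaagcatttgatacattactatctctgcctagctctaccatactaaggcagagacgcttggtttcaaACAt
Snora81: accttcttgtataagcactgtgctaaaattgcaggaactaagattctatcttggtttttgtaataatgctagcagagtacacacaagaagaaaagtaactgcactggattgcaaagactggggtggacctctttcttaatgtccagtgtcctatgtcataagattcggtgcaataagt
Gm26447: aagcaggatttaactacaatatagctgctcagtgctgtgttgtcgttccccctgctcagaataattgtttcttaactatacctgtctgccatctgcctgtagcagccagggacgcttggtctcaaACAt
Gm23262: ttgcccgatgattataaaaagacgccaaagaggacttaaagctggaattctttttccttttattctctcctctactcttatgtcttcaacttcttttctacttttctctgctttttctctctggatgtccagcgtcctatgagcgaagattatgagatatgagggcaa

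Eif5 (chr12:111538016-111546752) encodes the GTPase-activating protein of eIF2. It was at 45.3 and 41.9 CPM in IP replicates 1 and 2, and at 326 and 83.7 CPM in total RNA replicates 1 and 2. Both IP libraries were alike and low, and total RNA replicate 1 stood far above the other three. The fitted log2 fold change was -1.99 ± 0.11 (SE, n = 2 pairs, edgeR adjusted p = 5.2e-65), made up of -2.84 in pair 1 and -0.995 in pair 2. Here and below the SE comes from the trend over all genes and does not cover the distance between a gene's pairs. Eif4a1 and Eif4a2 encode the RNA helicase of the cap-binding complex. Eif4a1 (chr11:69666936-69672423) was at 115 and 110 CPM in the IP and at 284 and 165 CPM in total RNA, so its groups did not overlap. Its log2 fold change was -0.95 ± 0.10 (edgeR adjusted p = 7.32e-18), with -1.30 in pair 1 and -0.59 in pair 2. Eif4a2 (chr16:23107444-23114136) was at 91.7 and 74.7 CPM in the IP and at 248 and 88.1 CPM in total RNA. Here too total RNA replicate 1 stood apart, and total RNA replicate 2 lay between the IP libraries. Its log2 fold change was -0.87 ± 0.11 (edgeR adjusted p = 1.59e-13), with -1.43 in pair 1 and -0.24 in pair 2, so without replicate 1 little of it was left. The call of Eif4a1 held in all 8 blocked alternatives and those of Eif5 and Eif4a2 in 7 of 8. The exception was DESeq2, with a DESeq2 adjusted p of 0.112 for Eif5 and 0.367 for Eif4a2. The third eIF4A gene, Eif4a3, which encodes a core protein of the exon junction complex and holds no snoRNA, was at 33.3 and 36.6 CPM in the IP and at 33.8 and 44.2 CPM in total RNA, a log2 fold change of -0.16 ± 0.13 (edgeR adjusted p = 0.496).

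Not every snoRNA host was low. Eif4g2 (chr7:111067750-111083030), a relative of eIF4G that does not bind eIF4E, was at 278 and 258 CPM in the IP and at 245 and 239 CPM in total RNA. Both IP libraries were above both total RNA libraries, but the log2 fold change of 0.15 ± 0.10 was not called (edgeR adjusted p = 0.357). The 5 tested members with snoRNAs in introns alone (Eef2, Eif4g1, Eef1b2, Eif3a and Pabpc4) had fold changes from -0.25 to 0.30 on the log2 scale, a median of -0.053 and 0 calls by edgeR. With the 4 exon hosts left out, 56 members remained, of which 4 were called higher and 4 lower, with a median of 0.018. Each count is 7.14% of the 56, against 6.63% and 7.55% of all genes. What share of the reads of Eif5, Eif4a1 and Eif4a2 came from the snoRNAs was not tested, since the tables hold 1 count per gene.

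**Figure D2:**
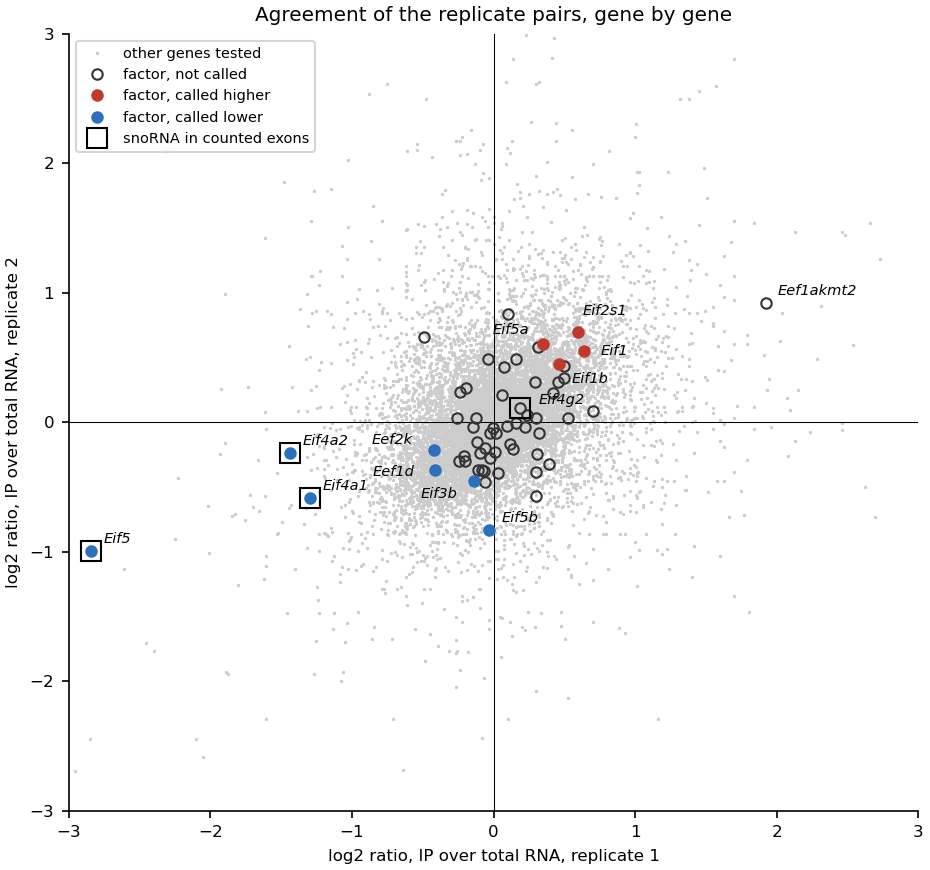
Log2 ratio of IP over total RNA in replicate 1 (x axis) against replicate 2 (y axis) for 12321 tested genes, of which the members are drawn large. Another 15 genes lie beyond the frame of 3 log2 units. Eif5, Eif4a1 and Eif4a2, boxed as snoRNA hosts, stand to the left of the cloud at -2.84, -1.30 and -1.43 in replicate 1, while the other members lie within it apart from Eef1akmt2.

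The group of eIF1 and eIF1A holds the scanning factor genes Eif1, Eif1b, Eif1a and Eif1ax, together with Eif1ad, whose product has an eIF1A-like domain. All 5 had a fitted value above 0, as did 6325 of the 12336 genes tested, and 2 were called higher. Their values ran from 0.15 to 0.59 with a median of 0.33 on the log2 scale. With an offset for GC content and transcript length the median was 0.11 and 4 of the 5 lay above 0, with Eif1a at -0.07. Eif1 (chr11:100319885-100322096), which guards start codon choice, was at 73.8 and 90.6 CPM in the IP and at 47.4 and 61.8 CPM in total RNA. Both IP libraries were above both total RNA libraries. Its log2 fold change was 0.59 ± 0.12 (edgeR adjusted p = 1.77e-05), with 0.64 and 0.55 in the pairs, and its call held in all 8 blocked alternatives. Eif1b (chr9:120492232-120495330), its close paralog, was at 40.8 and 40.7 CPM in the IP and at 29.6 and 29.8 CPM in total RNA. The replicates were almost equal and the groups were apart, with a log2 fold change of 0.46 ± 0.14 (edgeR adjusted p = 0.0105) and 0.46 and 0.45 in the pairs, and its call held in 5 of 8 blocked alternatives. Scaled by exon length the paralogs were at like levels, with Eif1 over Eif1b at 0.86 and 1.11 in total RNA and at 0.97 and 1.19 in the IP. Eif1ax was at 26.3 and 33.5 CPM in the IP and at 23.6 and 23.8 CPM in total RNA, also apart, but its 0.33 ± 0.15 was not called (edgeR adjusted p = 0.131). Its autosomal copy Eif1a, at 6.07 and 8.62 CPM in the IP and 6.23 and 6.08 CPM in total RNA, had -0.04 in pair 1 and 0.49 in pair 2. The lowest of the group, Eif1ad, was at 15.4 and 19.2 CPM in the IP and at 12.5 and 18.7 CPM in total RNA, a log2 fold change of 0.15 ± 0.19.

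eIF2 has an α subunit (Eif2s1), whose phosphorylation switches on the integrated stress response, a β subunit (Eif2s2) and a γ subunit with X and Y copies (Eif2s3x and Eif2s3y). Eif2s1 (chr12:78861819-78887010) was the highest called member, at 10.6 and 15.4 CPM in the IP and at 6.90 and 9.37 CPM in total RNA. Its IP libraries were above both total RNA libraries, with a log2 fold change of 0.67 ± 0.24 (edgeR adjusted p = 0.0417). The pairs gave 0.60 and 0.70, yet total RNA replicate 1 held 31 of its counts. The call held in 3 of 8 blocked alternatives, among which DESeq2 gave it no adjusted p. Eif2s3x was at 9.18 and 12.7 CPM in the IP and at 7.35 and 8.38 CPM in total RNA, and Eif2s3y was at 1.66 and 3.41 CPM against 1.11 and 2.47 CPM. Their log2 fold changes of 0.47 ± 0.25 and 0.50 ± 0.52 were not called (edgeR adjusted p = 0.224 and 0.585). Eif2s2 was the exception, at 9.32 and 13.2 CPM in the IP and at 9.13 and 17.4 CPM in total RNA, with 0.03 in pair 1 and -0.39 in pair 2. The length-scaled ratio of Eif2s3x to Eif2s3y was 7.20 and 3.71 in total RNA and 6.03 and 4.05 in the IP. Eif2s3y had only 5 and 15 counts in total RNA and 23 and 38 in the IP, so these ratios are uncertain. Whether they differ between the replicates was not tested. Eif2a and Eif2d, which encode separate initiator tRNA binders and not subunits of eIF2, had log2 fold changes of 0.26 ± 0.26 and 0.04 ± 0.24, neither called by edgeR.

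eIF2B is the exchange factor that recharges eIF2 with GTP, and none of its 5 subunit mRNAs was called by edgeR. Their median was -0.16 on the log2 scale and 4 of the 5 lay below 0. Eif2b3 was the highest, at 6.65 and 7.19 CPM in the IP and at 4.01 and 6.74 CPM in total RNA, a log2 fold change of 0.36 ± 0.31. Eif2b1 was the lowest, at 12.6 and 18.8 CPM in the IP and at 14.9 and 23.2 CPM in total RNA, a log2 fold change of -0.28 ± 0.18. Per kilobase of exon the subunits differed more from one another than the groups did, from 0.824 ± 0.296 CPM for Eif2b3 to 17.2 ± 1.96 CPM for Eif2b5 in total RNA (SD, n = 2). In both groups Eif2b3 lay far below the other 4, but its annotated exons add up to 6520 bases, against 1885 to 2599 for the others. That lowers its value per kilobase. In CPM it was also the lowest, at a mean of 5.37 in total RNA against 19.0 for Eif2b1.

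The subunits of eIF3, the scaffold that joins the small ribosomal subunit to eIF4G, lay near 0. Among 13 tested subunits the median log2 fold change was -0.053, 9 lay below 0, and 7 had the same sign in both pairs. Eif3b (chr5:140419328-140443360), a core subunit, was the 1 called, lower in the IP. It was at 99.7 and 120 CPM in the IP and at 110 and 165 CPM in total RNA. The groups overlapped, because replicate 2 was higher than replicate 1 in both, and only within pairs was the IP lower, with log2 ratios of -0.14 and -0.46 (fitted -0.30 ± 0.10, edgeR adjusted p = 0.0315). The call held in 4 of 8 blocked alternatives. Eif3e, which can be exchanged within the complex, was the highest at 18.6 and 25.0 CPM in the IP and 13.8 and 21.4 CPM in total RNA (0.31 ± 0.17, edgeR adjusted p = 0.241). Eif3f was below total RNA in both IP libraries, at 79.5 and 77.1 CPM against 92.0 and 92.4 CPM, but its -0.24 ± 0.11 was not called (edgeR adjusted p = 0.139). Per kilobase of exon the total RNA level ran from 1.07 ± 0.162 CPM for Eif3j1 to 89.3 ± 34.2 CPM for Eif3c, with a median of 20.1 CPM over the subunits. The IP gave the same lowest and highest subunit, at 1.10 ± 0.23 and 74.7 ± 18.7 CPM. Eif3j1, at 7.37 and 5.48 CPM in the IP and 5.57 and 6.90 CPM in total RNA, shares 53.6% of its transcript sequence, counted in stretches of 31 bases, with other genes, and its near-copy Eif3j2 shares 94.9% and had 1 count in all. Reads with more than 1 locus or gene were not counted, so both values are uncertain. What share of their reads was lost in this way was not tested.

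Within eIF4, the cap-binding and unwinding complex, 11 of 13 members were tested and the median was -0.16 on the log2 scale. Only the helicase mRNAs Eif4a1 and Eif4a2, described above, were called. In length-scaled levels Eif4a1 exceeded Eif4a2 1.41 and 2.31 times in total RNA and 1.55 and 1.81 times in the IP. These ratios are uncertain, because the counts include any reads of the snoRNAs in their exons. The genes also share 31.1% and 19.6% of their transcript sequence with other genes. Eif4e, the cap-binding protein itself, had the highest fold change of the group. It was at 19.6 and 26.1 CPM in the IP and at 13.8 and 20.5 CPM in total RNA, higher in the IP of each pair by 0.50 and 0.34, and its 0.41 ± 0.17 was not called (edgeR adjusted p = 0.0869). Eif4e2, a cap-binding relative that represses translation, was at 23.6 and 34.9 CPM in the IP and at 20.04 and 33.5 CPM in total RNA. Eif4e3 had 20 and 12 counts in the IP and 6 and 0 counts in total RNA, too few to test. The scaffold genes Eif4g1 and Eif4g3 both lay below 0. Eif4g1 was at 533 and 545 CPM in the IP and at 613 and 670 CPM in total RNA, with no overlap and a log2 fold change of -0.25 ± 0.10 (edgeR adjusted p = 0.0686). Eif4g3 was at 432 and 280 CPM in the IP and at 450 and 386 CPM in total RNA, a log2 fold change of -0.26 ± 0.10 (edgeR adjusted p = 0.0544), and it was called lower in 3 of 8 blocked alternatives. Eif4g2 was thus the eIF4G gene above 0, at 0.15 in the same scaling, and its length-scaled ratio to Eif4g1 was 0.29 and 0.26 in total RNA and 0.38 and 0.34 in the IP. The difference between the paralogs was not tested. The helicase cofactor Eif4b and the eIF4E binder Eif4enif1 lay below total RNA in both IP libraries with -0.17 and -0.14, and the cofactor Eif4h lay above 0 with 0.14, none called by edgeR.

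**Figure D3:**
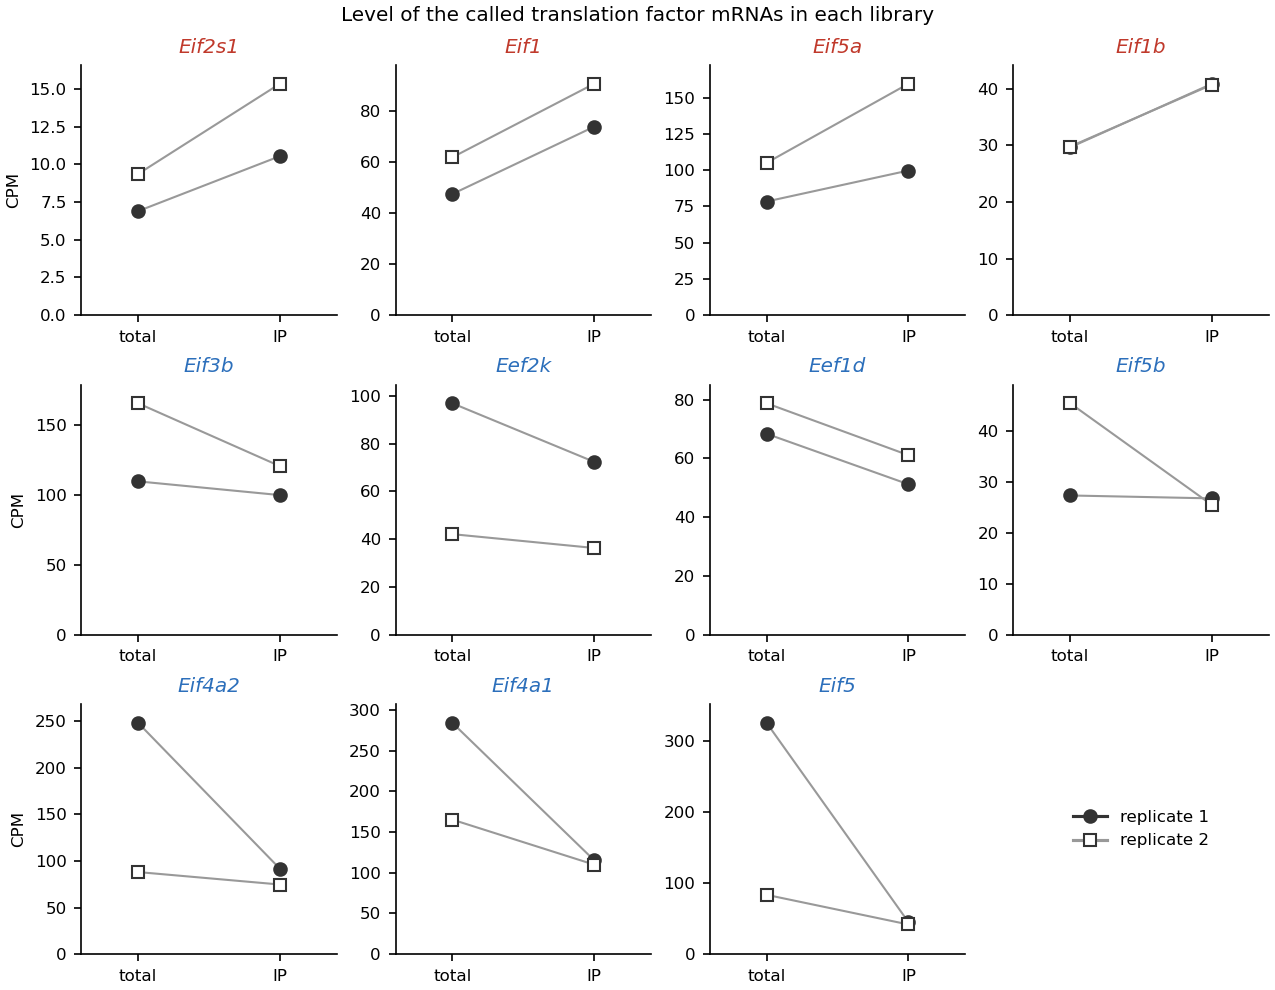
CPM in total RNA and RPS2 IP for the 11 called members, each axis starting at 0. Circles are replicate 1, squares replicate 2 and lines join the libraries of a replicate, so the 4 members with red names climb in both pairs and the 7 with blue names descend in both. For Eif5, Eif4a1 and Eif4a2 the IP libraries lie close together and total RNA replicate 1 is highest, whereas for Eif5b it is total RNA replicate 2.

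The group named eIF5 joins proteins with separate tasks, and its members parted. Eif5a (chr11:69916714-69921958) encodes the hypusine-bearing factor that helps ribosomes past difficult peptide bonds. It was at 99.7 and 160 CPM in the IP and at 78.4 and 105 CPM in total RNA. IP replicate 1 lay below total RNA replicate 2, so the groups overlapped, but within pairs the IP was higher by 0.35 and 0.60 (fitted 0.48 ± 0.11, edgeR adjusted p = 2.22e-04). Its call held in 7 of 8 blocked alternatives. Its paralog Eif5a2 was rare, at 2.31 and 5.84 CPM in the IP and 3.34 and 3.62 CPM in total RNA, and its pairs had opposite signs, -0.49 and 0.66. Per kilobase of exon Eif5a exceeded Eif5a2 at least 49.6 times in each library. Eif5b (chr1:37998010-38055579), the GTPase of subunit joining, was at 26.8 and 25.5 CPM in the IP and at 27.4 and 45.5 CPM in total RNA. Its fitted log2 fold change of -0.46 ± 0.14 (edgeR adjusted p = 0.0131) rested on total RNA replicate 2, since the pairs gave -0.03 and -0.83. Without replicate 2 the value is thus -0.03, although the call held in 7 of the 8 blocked alternatives, all of which keep both pairs. Eif6, which keeps large subunits from joining too early, was at 46.0 and 59.1 CPM in the IP and at 36.7 and 62.6 CPM in total RNA, with a log2 fold change of 0.10 ± 0.12 and pairs of opposite sign.

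The elongation factor group held the 3 members with the highest levels per kilobase of exon (Eef2, Eef1a1 and Eef1a2), and 1 of its 7 members, Eef1d, was called. Eef2, the translocase, was at 1587 and 2008 CPM in the IP and at 1657 and 2308 CPM in total RNA, a log2 fold change of -0.13 ± 0.11 (edgeR adjusted p = 0.465). Eef1a1 and Eef1a2 encode the carrier of aminoacyl-tRNA, and Eef1a2 is the form of mature neurons and muscle. Eef1a1 was at 742 and 841 CPM in the IP and at 664 and 844 CPM in total RNA. Eef1a2 was at 654 and 524 CPM in the IP and at 596 and 604 CPM in total RNA. Neither was called, with log2 fold changes of 0.08 ± 0.10 and -0.04 ± 0.10 (edgeR adjusted p = 0.687 and 0.867). Per kilobase of exon the paralogs were at near equal levels, with Eef1a1 over Eef1a2 at 0.93 and 1.17 in total RNA and at 0.95 and 1.34 in the IP. Eef1a1 shares 51.5% of its transcript sequence with other genes and Eef1a2 shares none, so the level of Eef1a1 is the less certain. Per kilobase the members ran in total RNA from Eef1akmt2 at 0.406 CPM to Eef2 at 596 CPM, with a median of 13.4 CPM over the 60 tested.

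**Figure D4:**
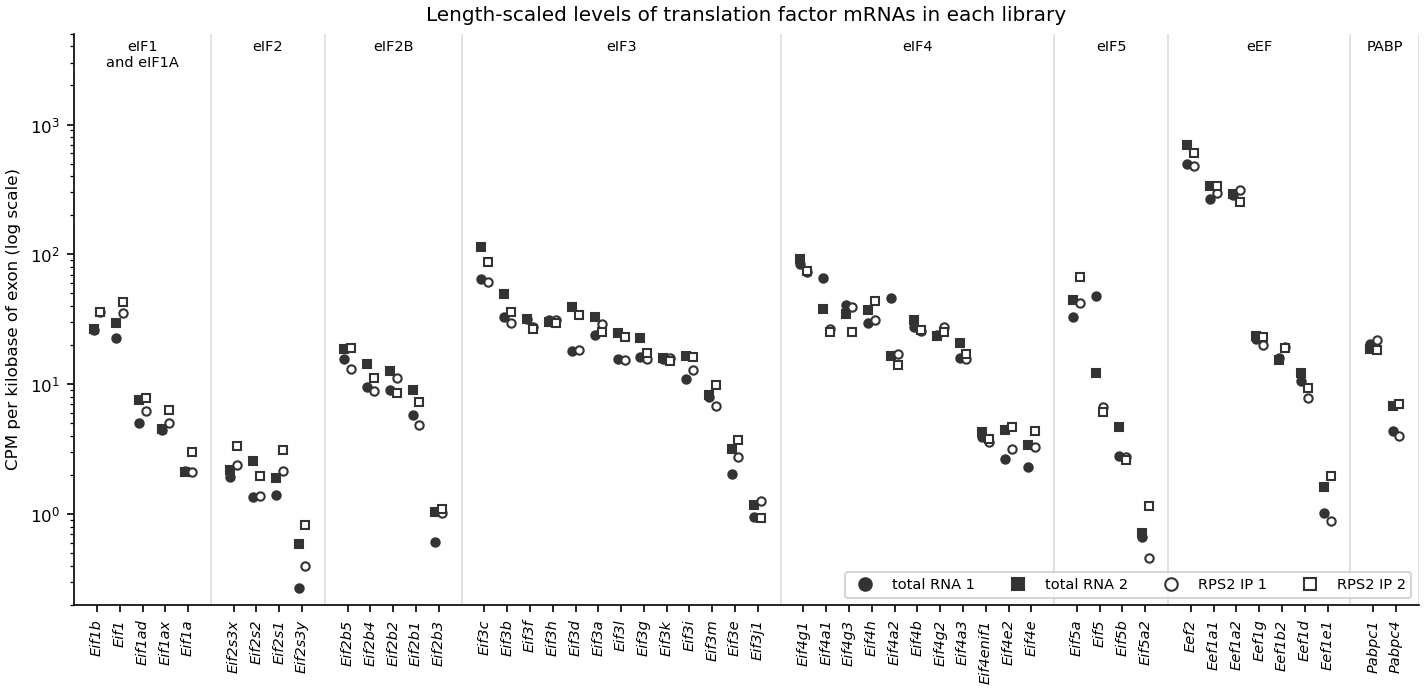
CPM per kilobase of annotated exon on a log scale for the tested members of 8 groups, sorted by total RNA within a group (PABP, poly(A)-binding proteins). Filled symbols are total RNA and open symbols RPS2 IP, circles for replicate 1 and squares for replicate 2. Eef2, Eef1a1 and Eef1a2 stand on top, and the eIF2 subunits lie near 2 CPM per kilobase apart from Eif2s3y.

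The exchange factor of eEF1A, eEF1B, has 3 subunits that did not move together. Eef1d (chr15:75894205-75909556), the δ subunit, was at 51.2 and 61.1 CPM in the IP and at 68.4 and 78.7 CPM in total RNA. Both IP libraries were below both total RNA libraries, and the pairs gave -0.42 and -0.37 (fitted -0.39 ± 0.11, edgeR adjusted p = 0.00809). Its call held in 6 of 8 blocked alternatives. Eef1b2, the α subunit, lay on the other side at 49.4 and 48.1 CPM in the IP and at 40.3 and 38.6 CPM in total RNA, with 0.29 and 0.31 in the pairs (fitted 0.30 ± 0.13, edgeR adjusted p = 0.0884). Eef1g, the γ subunit, was at 52.0 and 59.6 CPM in the IP and at 57.7 and 61.3 CPM in total RNA, a log2 fold change of -0.09 ± 0.12, and shares 47.6% of its sequence with other genes. Whether these subunits differ from one another was not tested. Eef1e1, which sits in the multi-tRNA synthetase complex, was at 2.89 to 6.38 CPM in the 4 libraries.

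Enzymes that act on the elongation factors were mostly rare. Eef2k (chr7:120842831-120907450), the calcium-dependent kinase that halts elongation by phosphorylating eEF2, was the 1 called. It was at 72.3 and 36.3 CPM in the IP and at 96.9 and 42.1 CPM in total RNA. Replicate 1 was the higher in both groups, which therefore overlapped, and within pairs the IP was lower, with log2 ratios of -0.42 and -0.21 (fitted -0.33 ± 0.12, edgeR adjusted p = 0.0393), a call held in 4 of 8 blocked alternatives. Eef1akmt2, a lysine methyltransferase of eEF1A, had the highest fold change of all members. It had 32 and 23 counts in the IP and 2 and 6 counts in total RNA, or 2.31 and 2.07 against 0.445 and 0.986 CPM. Both IP libraries were above total RNA, yet at these counts the log2 fold change of 1.54 ± 0.64 was not called (edgeR adjusted p = 0.0825). The methyltransferases Eef1akmt1 and Eef2kmt had 0.25 ± 0.32 and 0.47 ± 0.59.

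Termination factors and poly(A)-binding proteins gave no call by edgeR. Etf1, which encodes eRF1, was at 24.9 and 31.6 CPM in the IP and at 18.0 and 25.5 CPM in total RNA, higher in the IP of each pair by 0.46 and 0.31 (fitted 0.38 ± 0.16, edgeR adjusted p = 0.0873). Gspt1, which encodes its partner eRF3, was at 72.9 and 65.3 CPM in the IP and at 67.2 and 73.5 CPM in total RNA, a log2 fold change of -0.03 ± 0.11. Pabpc1 was at 142 and 119 CPM in the IP and at 133 and 122 CPM in total RNA. Pabpc4 was at 16.1 and 28.3 CPM in the IP and at 17.6 and 27.6 CPM in total RNA, and shares 63.3% of its sequence with other genes. Both had fold changes within their error, 0.03 ± 0.10 and -0.03 ± 0.16 on the log2 scale.

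Some members differed more between the replicate numbers than between IP and total RNA. Eif3d was at 90.2 CPM in total RNA replicate 1 and 197 CPM in replicate 2, and the IP showed the same step from 90.9 to 168 CPM. Eif3c went from 229 to 399 CPM in total RNA and from 216 to 309 CPM in the IP. Eef2k went the other way, from 96.9 to 42.1 CPM and from 72.3 to 36.3 CPM. Across the 60 members the log2 ratio of replicate 2 to replicate 1 had a median of 0.34 in total RNA and 0.21 in the IP, and the same ratio had a Spearman correlation of 0.57 between total RNA and IP, as a description over genes that share libraries. Over all genes tested the medians were -0.014 and -0.0021 and the correlation was 0.68. The SD of the ratio in total RNA was 0.59 over the members and 0.78 over all genes. The summed level of the 5 astrocyte markers also differed between the replicates, as given above, and its part in these steps was not tested. In bulk samples fewer cells of a type and less RNA per cell cannot be told apart.

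The study's list of 5'TOP mRNAs contains 11 of the members (Eif3a, Eif3e, Eif3f, Eif3h, Eif4b, Pabpc1, Eef1a1, Eef1b2, Eef1d, Eef1g and Eef2). One of them, Eef1d, was called lower by edgeR and none higher, with a median log2 fold change of -0.053 and values from -0.39 to 0.31. That 1 lower call is 9.09% of the 11. The other 49 tested members held 4 higher (8.16%) and 6 lower calls (12.2%) and had a median of 0.020. With the snoRNA hosts also left out, 45 members remained, with 4 higher (8.89%) and 3 lower calls (6.67%) and a median of 0.037. Over all genes tested the shares were 6.63% higher and 7.55% lower. The range of the 5'TOP members lay inside that of the others, which are more numerous, so the ranges do not show whether the lists differ. That difference was not tested.

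The fitted fold change tended to be lower at higher GC content, though weakly for the members in pair 1. Across the 60 members the Spearman correlation between fold change and GC content was -0.31, against -0.32 over 12328 genes, and with exon length it was -0.21, against -0.17. In pairs 1 and 2 the correlation with GC content was -0.14 and -0.32 over the members, and -0.31 and -0.24 over all genes. The points share the 4 libraries and their scaling. The eIF2 mRNAs, with a median log2 fold change of 0.49, had a median GC content of 41.3%, while the eIF2B mRNAs, with -0.16, had 52.5%. Eif1b and Eif5a were higher in the IP at 53.2% and 53.7% GC. With an offset for GC content and length the median over the members became -0.092, and the median of the eIF2 mRNAs became 0.26. Over all genes the median went from 0.011 to -0.0087. With the offset 24 of the 60 members lay above 0, against 6026 of all 12336 genes tested. In that fit edgeR called 2 members higher, Eif1 at 0.37 and Eif5a at 0.37, and the calls of Eif1b, at 0.27, and Eif2s1, at 0.44, were lost. Of the lower calls Eif5, Eif4a1, Eif4a2 and Eif5b stayed, at -2.16, -1.02, -1.10 and -0.55, whereas Eef1d, Eef2k and Eif3b did not, and Eif3c and Eif3f were called in their place at -0.31 and -0.38.

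**Figure D5:**
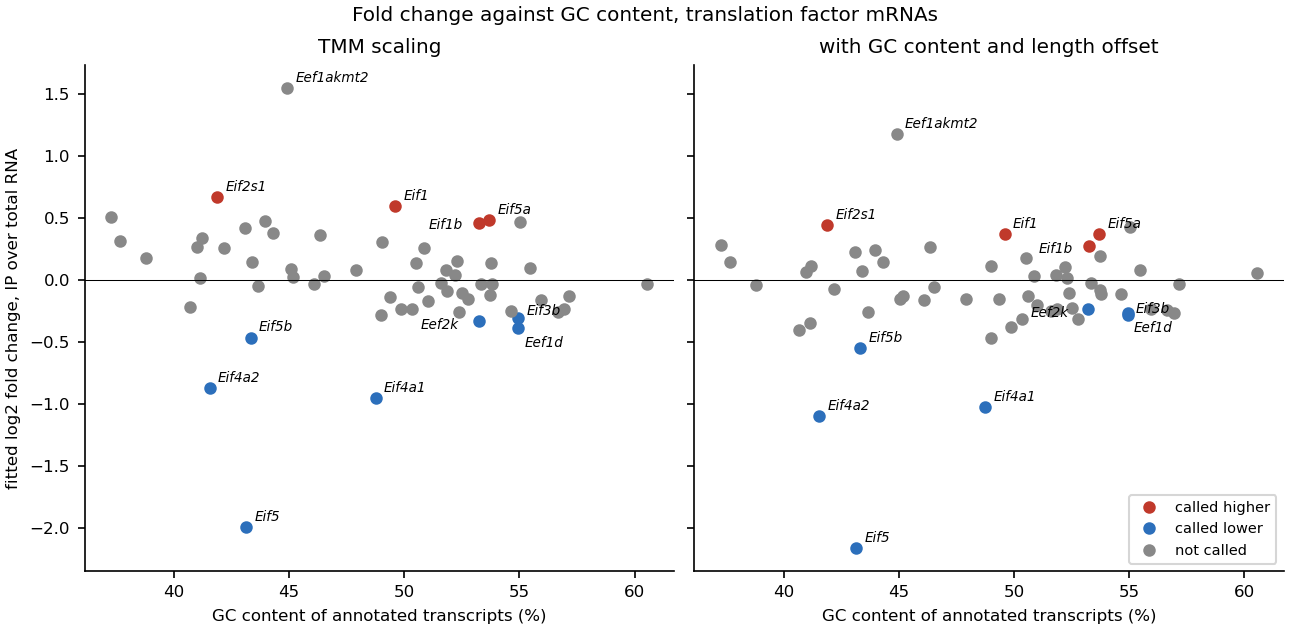
Fitted log2 fold change of the 60 tested members against the GC content of their annotated transcripts, on the left as scaled by TMM and on the right with an offset for GC content and length. Colours show the calls of the left panel in both. The downward slope on the left, a Spearman correlation of -0.31, is -0.042 on the right, while Eif5, Eif4a1 and Eif4a2 stay lowest.

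Other genes of the pathway, both regulators and further factors of termination, recycling and reinitiation, were counted from a list of 33, of which 32 were tested. By edgeR 2 rose and 3 fell, with a median log2 fold change of -0.047, so the shares called, 6.25% and 9.38%, were near those of all genes. Ddx3x, a DEAD-box helicase that aids scanning, was at 75.0 and 82.6 CPM in the IP and 51.0 and 69.5 CPM in total RNA (0.39 ± 0.11, edgeR adjusted p = 0.00779). Impact, a neuronal inhibitor of the eIF2α kinase GCN2, was at 37.1 and 58.0 CPM in the IP and 31.6 and 40.4 CPM in total RNA (0.39 ± 0.13, edgeR adjusted p = 0.0235). GCN2 itself, encoded by Eif2ak4, was lower, at 19.9 and 21.5 CPM in the IP and 25.2 and 32.7 CPM in total RNA (-0.48 ± 0.16, edgeR adjusted p = 0.0187). Mtor, the kinase that sets the translation of 5'TOP mRNAs, was at 260 and 248 CPM in the IP and 330 and 357 CPM in total RNA (-0.43 ± 0.10, edgeR adjusted p = 3.01e-04). Ppp1r15a, which directs dephosphorylation of eIF2α, was at 29.5 and 34.7 CPM in the IP and 39.6 and 43.2 CPM in total RNA (-0.37 ± 0.13, edgeR adjusted p = 0.0431). Once GC content and length were corrected for, none of these 5 was called by edgeR, with values of 0.17, 0.17, -0.45, -0.27 and -0.35 in the same order. The eIF4E-binding proteins Eif4ebp1 and Eif4ebp2 had -0.33 ± 0.25 and 0.10 ± 0.15, and Eif4ebp3 had 2 counts in IP replicate 1 and none elsewhere.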

How the data were processed

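RPS2 eCLIP and total RNA libraries of primary cortical neurons were analysed from raw read counts per gene, which the authors deposited without normalization. Per the file headers and the study's methods, reads were trimmed (cutadapt), aligned over their whole length to mm10 (STAR) and counted by strand (featureCounts 1.5.3, strand option 1). Reads with more than 1 locus or gene were dropped, so genes with close copies are undercounted. Since duplicate removal is not mentioned, intervals and limits of 3 counts cover counting error only.

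Identifiers were matched to GENCODE M21, and 31011 of 31053 had a symbol. Members and lists were chosen with earlier results of these data known, and the fall of Eif5 was among them. Members named with the value in every library were those called, the highest and lowest of each group, the paralogs and the snoRNA hosts. The 5'TOP list is the study's, and the list of other pathway genes and the cell type markers come from general knowledge. A snoRNA counted as exonic with at least 50% of its bases in counted exons on the same strand. Shared sequence is the share of 31-base stretches of a gene's transcripts found, on either strand, in those of another gene. It is not the share of reads lost, since a longer read can be unique and opposite strands are counted apart. Levels per kilobase use the joint length of all annotated exons of a gene, so comparisons between genes depend on the annotation.

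The test was edgeR's (version 4.0.16 in R 4.3.3; filterByExpr, TMM, glmQLFit, glmQLFTest, two-sided, Benjamini-Hochberg over 12336 genes, threshold 0.05), with the replicate number as a block. Per the methods each total RNA was taken from a sample that then went into the IP, and libraries with one number deviated together from their group means (Pearson correlation 0.733). edgeR estimated infinite prior degrees of freedom, which sets every gene's dispersion to the trend, with a biological coefficient of variation of 7.93% with the block and 29.7% without it. The edgeR p-values and SEs thus rest on the spread over all genes, and not on how well a gene's own pairs agree. Nothing states that the replicates were separate cultures, so that spread may be technical. Pair values are differences of log2 CPM with a prior count of 2. Alternatives were other scalings, filters, DESeq2 1.42.0, limma-voom (limma 3.58.1), thinning to 4899718 counts, an offset for GC content and length, no block, and each replicate left out. The fits were tested on simulated data. Sequences came from the GENCODE M21 transcripts.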

Additional observations from a re-analysis of the deposited data

How the results depend on the processing

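Without the replicate block edgeR called 0 members higher and 0 lower, against 4 and 7 with it. That fit called 0 of all 12336 genes and recovered none of the changed genes in simulated data. Its lack of calls therefore says nothing about the stability of the members' values. The blocked fit recovered all 50 changed genes at a simulated fold of 2. At the next smaller fold it recovered 33 of 50, and at the smallest 4 of 50. A member left uncalled may therefore still differ by less than a fold of 2. Scaling by library size alone gave 1 higher and 6 lower, with a median log2 fold change of -0.092 over the members beside -0.073 over all genes, so the members moved with the whole distribution. Correcting for GC content and length left 2 higher and 6 lower and a median of -0.092 over the members, beside -0.0087 over all genes. DESeq2 gave 2 higher and 1 lower, and left 23 members without an adjusted p. Leaving out the 4 members with a snoRNA in counted exons, an alternative chosen after seeing the data, gave 4 higher and 4 lower. Size factors by median ratio, a minimum of 10 counts per library, no low-count filter, limma-voom and thinning gave 3 to 4 higher and 5 to 9 lower. The median over the members was -0.043 without replicate 1 and 0.046 without replicate 2, where 1 library per group leaves a value with no test, and no count of calls could be made. None of the 11 called members changed sign in any alternative or in either pair. They were picked by the blocked fit on these same libraries, so a shared sign is largely set by that choice. Only Eif1 and Eif4a1 were called in all 8 blocked alternatives, and 4 members (Eif3c, Eif3f, Eif4g1 and Eif4g3) were called in an alternative alone. Members with few counts, such as Eef1akmt2 and Eif2s3y, are limited by the depth of total RNA.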
